A study of Mus musculus with 12 samples.

Results

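Respiratory complex I is the first enzyme of the mitochondrial respiratory chain. It takes electrons from NADH in its matrix arm, passes them along a row of iron-sulfur clusters to ubiquinone, and pumps protons through its membrane arm. Core subunits carry out this catalysis, accessory subunits surround and stabilise them, and assembly factors help to build the enzyme without staying in it. Nuclear genes whose names start with Nduf encode the core subunits of the matrix arm, all accessory subunits and many assembly factors, and beating heart muscle is rich in the enzyme. The transcripts of these genes were followed here in RNA carried by exosomes, small vesicles that cells release.

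The members were all probes whose gene symbol in the platform annotation starts with Nduf. This rule found 53 of 25696 probes, for 40 of 16593 named genes, and used no measured value. All 40 genes matched the RefSeq gene table by gene identifier. Subunits of complex I accounted for 33 genes and 43 probes, of which 6 genes were core subunits and 27 were accessory subunits. By position in the enzyme 15 subunits belong to the matrix arm, 17 to the membrane arm, and Ndufab1, the mitochondrial acyl carrier protein, to both. A further 5 genes with 8 probes were assembly factors (Ndufaf1, Ndufaf3, Ndufaf4, Ndufaf5 and Ndufaf7). The last members were Ndufa4, which is now assigned to complex IV (cytochrome c oxidase), and Ndufs5-ps, an annotated pseudogene, with 1 probe each.

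The exosomes came from HL-1 cells, an established mouse atrial cardiomyocyte line that continues to contract in culture. Cells received TGF-β2 at 10 ng/mL, PDGF-BB at 100 ng/mL, or neither growth factor (control), and exosomes were collected from serum-free medium after 23 h. Each group had 4 samples, and each sample was hybridised to 1 Illumina MouseRef-8 array. Per the methods each sample came from the exosomes of 1 culture flask of a single cell line, so that p-values measure only the spread between such flasks. The arrays lay on 2 chips, and each chip carried 2 arrays per group. Chip 1 held TGF-β2 samples 1 and 4, PDGF-BB samples 1 and 4 and control samples 2 and 3, and chip 2 held the others. Within both chips each group had the same pair of positions, so that position and group cannot be told apart.

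A probe was called detected when its detection p-value, the rank of its signal among the negative controls on that array, was under 0.01. The number of probes detected per array lay between 518 and 1506 with TGF-β2, between 294 and 1070 with PDGF-BB and between 463 and 1152 in controls. PDGF-BB sample 3 had the most detected probes of its group and the other 3 PDGF-BB samples had 421, 322 and 294. Of 23 cardiomyocyte markers, 7 were detected on at least 1 array, with Atp2a2 and Myl4 on 11 arrays each, while Actc1, Nppa, Tnnc1 and 13 others were on 0 arrays. Per array 4.35 to 30.4% of these markers were detected, against 1.55 to 7.84% of all named genes. Of 7 genes of exosome proteins, Hspa8 was on 11 arrays and Cd63 on 1, while Cd9, Cd81, Tsg101, Pdcd6ip and Flot1 were on 0. Endothelial and erythroid markers (7 and 3 genes) were on 0 arrays. On at least 1 array were 1 of 6 leucocyte (16.7%) and 2 of 8 fibroblast markers (25.0%), against 17.3% of all named genes. Their part in the results was not tested.

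Transcripts of complex I were at the edge of detection in most samples and above it in a few. Of the 33 subunit genes, 15 were detected on at least 1 array, which is 45.5% against 17.3% of all named genes. The other 18 were detected on 0 arrays, 4 on exactly 1, 3 on exactly 2 and 8 on 3 or more, and none was detected on all 12 arrays. By arm, 8 of 15 subunits of the matrix arm and 7 of 17 of the membrane arm were detected at least once. At the probe level 19 of the 53 members were detected on at least 1 array, against 13.0% of all probes, and 34 on 0 arrays, against 87.0% of all probes. Over all arrays 59 of 636 pairs of a member probe and an array were detected (9.28%), against 2.80% for all probes, and the threshold alone would give 6.36 such pairs.

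**Figure D1:**
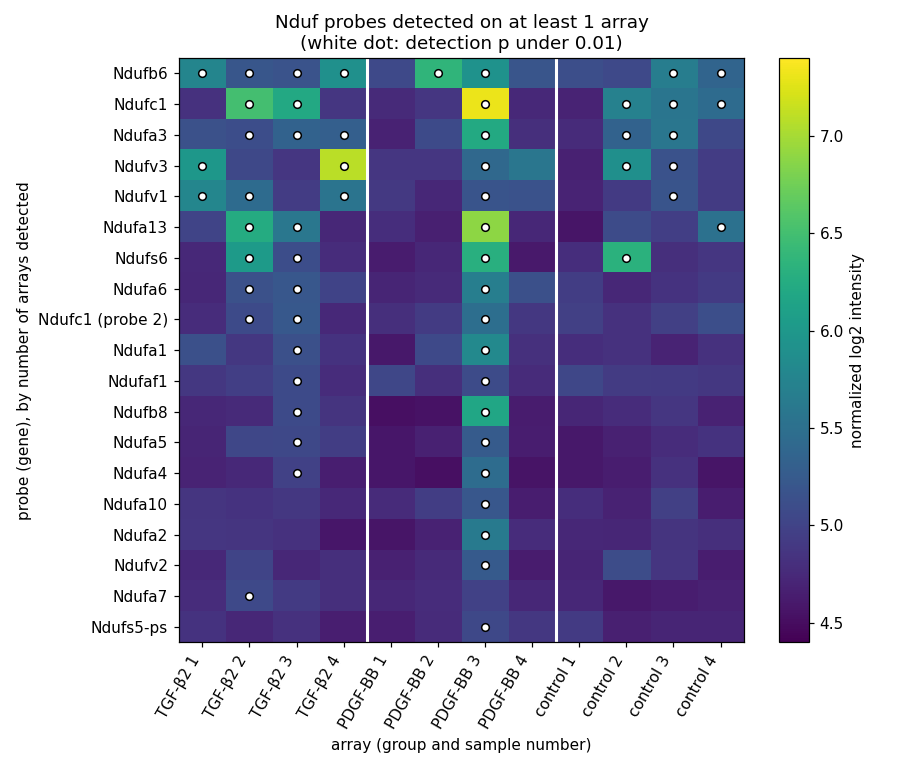
Log2 intensity of the member probes detected on at least 1 array (rows, ordered by the number of arrays) on the 12 arrays (columns, grouped by treatment), with a white dot where the detection p-value was under 0.01. The column of PDGF-BB sample 3 holds 18 detected members, the most of any array, while PDGF-BB samples 1 and 4 and control sample 1 hold 0.

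The detected subunits were spread unevenly over the samples. Of the 33 subunit genes, 3, 8, 9 and 4 were detected in TGF-β2 samples 1 to 4, 0, 1, 14 and 0 in PDGF-BB samples 1 to 4, and 0, 4, 5 and 3 in control samples 1 to 4. The mean share was 18.2 ± 8.92% with TGF-β2, 11.4 ± 20.8% with PDGF-BB and 9.09 ± 6.55% in controls (SD, n = 4 each). The 3 groups overlapped, and without PDGF-BB sample 3 the PDGF-BB mean was 1.01%. Within chip 1 the mean shares were 10.6% with TGF-β2, 0% with PDGF-BB and 13.6% in controls, and within chip 2 they were 25.8%, 22.7% and 4.55%, so that the TGF-β2 mean was above the control mean on chip 2 and below it on chip 1.

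The general yield of an array moved with these counts. All named genes were detected at 4.74 ± 2.34% with TGF-β2, 2.82 ± 1.88% with PDGF-BB and 3.96 ± 1.62% in controls. Relative to the share of all probes detected on the same array, member probes were detected 2.58, 4.41, 3.86 and 3.74 times as often in TGF-β2 samples 1 to 4. This ratio was 0, 1.51, 8.16 and 0 in PDGF-BB samples 1 to 4, and 0, 2.37, 2.10 and 2.76 in control samples 1 to 4. TGF-β2 sample 3 had more detected probes in all than PDGF-BB sample 3 (1506 against 1070) but fewer detected members (12 against 18). The threshold alone would give 0.53 member probes per array, so that counts of 0 and 1 lie at that level. Among the 500 brightest probes of each array, a count that does not depend on the detection threshold, 3, 4, 3 and 4 subunit genes were found in TGF-β2 samples, 0, 1, 10 and 1 in PDGF-BB samples, and 0, 4, 3 and 3 in control samples. The mean share of subunit genes among these probes was 10.6% with TGF-β2, 9.1% with PDGF-BB and 7.6% in controls. For all named genes it was 2.6%, 2.7% and 2.7% in the same order.

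**Figure D2:**
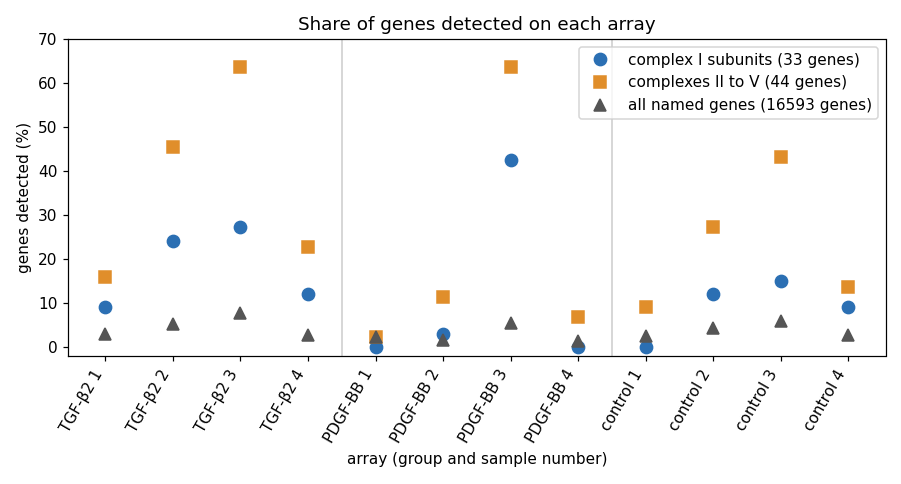
Percent of genes detected per array for complex I subunits (33 genes), complexes II to V (44 genes) and all named genes, with 1 point per sample in TGF-β2, PDGF-BB and control groups. PDGF-BB sample 3 reaches 42.4% of subunits while the other PDGF-BB samples lie between 0 and 3.03%.

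The rest of the respiratory chain was set beside complex I with a list of 44 nuclear genes of complexes II to V, which include succinate dehydrogenase, the cytochrome bc1 complex, cytochrome c oxidase and ATP synthase. Complex I had 15 of 33 subunits detected on at least 1 array (45.5%), and this list had 30 of 44 genes (68.2%). Per sample 7, 20, 28 and 10 of the 44 genes were detected with TGF-β2, 1, 5, 28 and 3 with PDGF-BB, and 4, 12, 19 and 6 in controls. TGF-β2 sample 3 and PDGF-BB sample 3 thus had 9 and 14 subunits of complex I but the same count for complexes II to V. The means for complexes II to V were 36.9 ± 21.8% with TGF-β2, 21.0 ± 28.7% with PDGF-BB and 23.3 ± 15.3% in controls (SD, n = 4 each). The subunits of complex I that are encoded in mitochondrial DNA were not analysed here.

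Among core subunits, the transcript of Ndufv1 was the one detected repeatedly. Ndufv1 binds NADH and the flavin that takes up its electrons. It was detected on 5 arrays, and its log2 intensity after normalization between arrays was 5.77, 5.45, 4.94 and 5.55 in TGF-β2 samples 1 to 4. It was 4.90, 4.74, 5.18 and 5.15 in PDGF-BB samples 1 to 4, and 4.70, 4.91, 5.18 and 4.92 in control samples 1 to 4. TGF-β2 samples 1, 2 and 4 were above every sample of the other groups, while TGF-β2 sample 3 lay inside the control range. On the deposited scale, in arbitrary fluorescence units, the signal was 89, 71, 58 and 82 in TGF-β2 samples, 49, 16, 73 and 67 in PDGF-BB samples, and 9, 54, 94 and 42 in controls, so that control sample 3 was the brightest before normalization. Ndufv2, which carries the iron-sulfur cluster beside the flavin, was detected in PDGF-BB sample 3 only (5.25). Ndufs1, Ndufs3, Ndufs7 and Ndufs8, which hold or frame the other iron-sulfur clusters on the way to ubiquinone, were on 0 arrays.

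Accessory subunits of the matrix arm fell into those seen in several samples and those at background. Ndufv3, at the tip of the arm beside Ndufv1, was detected on 5 arrays by 1 of its 3 probes, with log2 values of 5.98, 5.05, 4.87 and 7.09 in TGF-β2 samples 1 to 4. It had 4.88, 4.88, 5.41 and 5.58 in PDGF-BB samples 1 to 4, and 4.67, 5.89, 5.16 and 4.94 in control samples 1 to 4. The highest value, TGF-β2 sample 4, rested on a deposited signal of 120 ± 16 (SE over beads), which was below the 144 ± 20 of control sample 2, so that the order of these samples turned with the normalization. The other 2 Ndufv3 probes were on 0 arrays.

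Ndufs6, a zinc-binding subunit, was detected on 4 arrays. With TGF-β2 its log2 values were 4.75, 6.03, 5.11 and 4.78 (samples 1 to 4). They were 4.63, 4.73, 6.29 and 4.61 in PDGF-BB samples 1 to 4, and 4.80, 6.31, 4.80 and 4.87 in control samples 1 to 4. Each group thus had 1 or 2 high samples and the others near the median of all probes, which was 4.66. Ndufa6, which docks the acyl carrier protein, was detected on 3 arrays, namely TGF-β2 samples 2 and 3 (5.15 and 5.22) and PDGF-BB sample 3 (5.68). Its control values, none of them detected, lay between 4.74 and 4.95. Ndufa5 was detected in TGF-β2 sample 3 (5.05) and PDGF-BB sample 3 (5.26), Ndufa2 in PDGF-BB sample 3 (5.64) and Ndufa7 in TGF-β2 sample 2 (5.07). The second Ndufa5 probe, all 4 probes of Ndufs4, and the probes of Ndufa9, Ndufa12 and Ndufab1 were on 0 arrays.

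The membrane arm held the 3 subunit genes that were detected on 6 or more arrays. Ndufb6, an accessory subunit of the outer part of this arm, was detected on 8 arrays, which include all 4 TGF-β2 samples (5.77, 5.21, 5.17 and 5.91 on the log2 scale). Its values were 5.06, 6.36, 5.93 and 5.19 in PDGF-BB samples 1 to 4 and 5.12, 5.06, 5.67 and 5.37 in control samples 1 to 4. The PDGF-BB and control groups had 2 detected samples each, and the 3 groups overlapped. The highest of these values, PDGF-BB sample 2, came from a deposited signal of 68 ± 19, against 143 ± 12 in PDGF-BB sample 3, so that here too the order of samples turned with the normalization. The second Ndufb6 probe was on 0 arrays, with log2 values of 4.43 to 4.59.

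Ndufc1, a small subunit of the membrane arm, was detected on 6 arrays by its first probe and had the widest spread. The log2 values were 4.83, 6.50, 6.21 and 4.87 in TGF-β2 samples 1 to 4, 4.76, 4.88, 7.32 and 4.75 in PDGF-BB samples 1 to 4, and 4.70, 5.72, 5.57 and 5.45 in control samples 1 to 4. Within the TGF-β2 group both detected samples were on chip 2, and PDGF-BB sample 3 stood alone in its group. The deposited signals were 262 ± 24 in TGF-β2 sample 3 and 343 ± 25 in PDGF-BB sample 3, so that the bead error was small beside the spread between samples. The second Ndufc1 probe was detected in TGF-β2 samples 2 and 3 (5.07 and 5.23) and PDGF-BB sample 3 (5.49), which were also the 3 highest samples of the first probe, while control sample 4 had 5.12 without being detected.

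The promoters of Ndufb6 (detected on the most arrays), of Ndufc1 (with the widest spread) and of Ndufv1 (the only core subunit detected on more than 1 array) are shown to place 2 known classes of regulatory motif of respiratory genes. These are the core of the NRF-1 site, TGCGCA, which reads the same on both strands, and the core of the ETS site bound by GABP (NRF-2), CCGGAA or its reverse complement TTCCGG. The sequences are the 250 bases before the RefSeq start of each gene in build GRCm38.p6, 5′ to 3′ on the strand of the gene, with motif matches in capitals. All 3 genes lie on the minus strand, Ndufb6 at chr4:40279422-40279671, Ndufc1 at chr3:51408956-51409205 and Ndufv1 at chr19:4012756-4013005.
Ndufb6: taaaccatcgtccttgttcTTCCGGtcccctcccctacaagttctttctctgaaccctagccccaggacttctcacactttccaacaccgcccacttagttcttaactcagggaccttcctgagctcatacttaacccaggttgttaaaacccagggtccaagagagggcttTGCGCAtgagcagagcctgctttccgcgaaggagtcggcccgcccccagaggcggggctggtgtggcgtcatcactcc
Ndufc1: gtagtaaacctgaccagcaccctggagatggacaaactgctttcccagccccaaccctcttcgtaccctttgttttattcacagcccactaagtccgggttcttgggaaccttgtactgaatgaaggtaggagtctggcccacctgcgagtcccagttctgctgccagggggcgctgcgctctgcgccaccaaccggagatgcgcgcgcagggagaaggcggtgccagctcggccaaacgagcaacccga
Ndufv1: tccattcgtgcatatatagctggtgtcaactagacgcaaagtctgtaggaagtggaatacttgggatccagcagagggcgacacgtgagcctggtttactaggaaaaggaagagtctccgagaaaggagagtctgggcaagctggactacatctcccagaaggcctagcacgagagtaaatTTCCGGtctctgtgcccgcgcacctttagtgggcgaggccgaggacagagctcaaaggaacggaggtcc
The Ndufb6 window held 1 NRF-1 core, 78 bases before the start, and 1 ETS core, the Ndufv1 window held 1 ETS core, and the Ndufc1 window held neither. Of 30 subunit genes with a promoter in the table, 6 held the NRF-1 core (20.0%; Ndufa5, Ndufa6, Ndufa9, Ndufb4, Ndufb6 and Ndufs6), against 7.36% of 27025 genes. The ETS core was in 8 of 30 (26.7%; Ndufa9, Ndufa10, Ndufb6, Ndufb7, Ndufs3, Ndufs7, Ndufv1 and Ndufv3), against 13.6% of all genes. Both detected and undetected subunits were among the genes with a match. A match describes these letters only, and binding was not measured.

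Ndufa3, a small subunit with a single membrane span, was also detected on 6 arrays, with log2 values of 5.14, 5.11, 5.34 and 5.30 in TGF-β2 samples 1 to 4. They were 4.68, 5.07, 6.22 and 4.81 in PDGF-BB samples 1 to 4, and 4.77, 5.34, 5.58 and 5.05 in control samples 1 to 4. The TGF-β2 samples were close together (SD 0.11), against SDs of 0.70 with PDGF-BB and 0.35 in controls. Ndufa13, also known as GRIM-19, was detected on 4 arrays and had 5.01, 6.25, 5.59 and 4.74 in TGF-β2 samples, 4.79, 4.66, 6.89 and 4.73 in PDGF-BB samples, and 4.58, 5.08, 4.95 and 5.52 in controls. As with Ndufc1, TGF-β2 samples 2 and 3 and PDGF-BB sample 3 were its highest samples.

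Further subunits of the membrane arm were detected once or on 2 arrays. Ndufa1, which is encoded on the X chromosome, had 5.13 in TGF-β2 sample 3 and 5.81 in PDGF-BB sample 3, and Ndufb8 had 5.08 and 6.18 in the same samples. Both were detected in those samples only, and their other values were between 4.52 and 5.13. Ndufa10 was detected in PDGF-BB sample 3 alone (5.21). Ndufa8, Ndufb2, Ndufb3, Ndufb4, Ndufb5, Ndufb7, Ndufb9, Ndufb10, Ndufb11 and Ndufc2 were on 0 arrays.

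PDGF-BB sample 3 was the highest sample for 14 of the 19 member probes detected at least once. Ndufa10, Ndufa2, Ndufv2 and Ndufs5-ps entered that set only through their detection in this sample. The share over all probes detected at least once was not computed, so that no conclusion is drawn from this count. Among the 9 member probes detected on at least 3 arrays PDGF-BB sample 3 was the highest for 5, against 15.4% of all 1099 probes detected as often. Of these, Ndufa6 and the second Ndufc1 probe were detected on 3 arrays that include this sample. They thus passed the filter only through it, so that no conclusion is drawn from this count either. The deposited signal put PDGF-BB sample 3 highest for 6 of the 9. The exceptions on the normalized scale were Ndufv1 (TGF-β2 sample 1), Ndufv3 (TGF-β2 sample 4), Ndufb6 (PDGF-BB sample 2) and Ndufs6 (control sample 2). For 5 of these 9 probes the highest sample on the normalized scale was not the brightest by deposited signal.

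**Figure D3:**
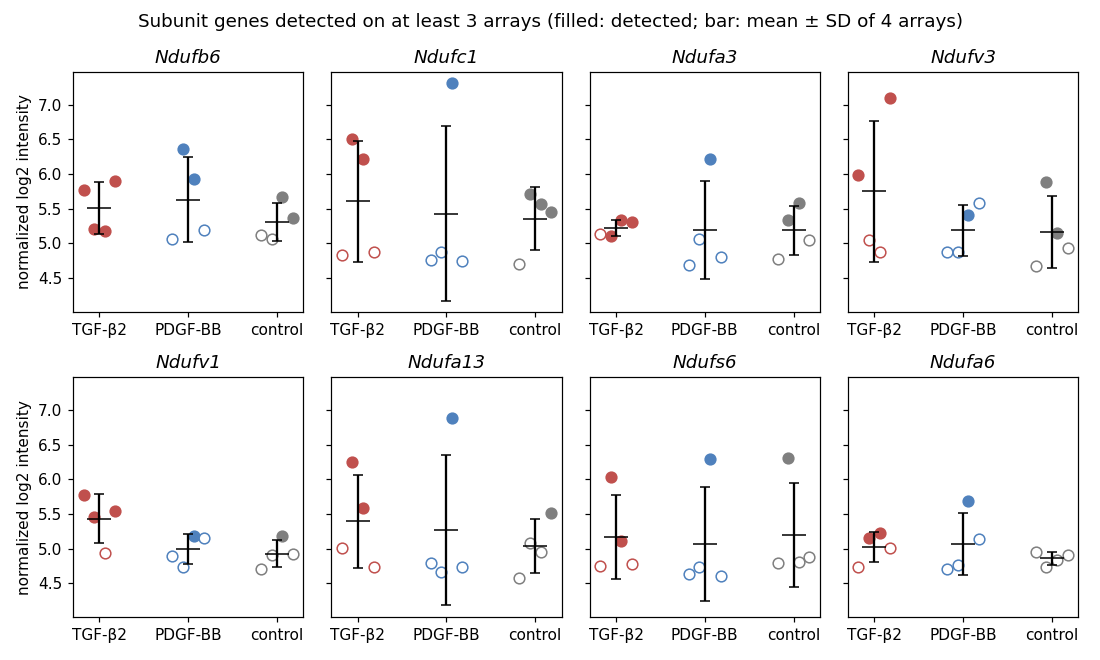
Normalized log2 intensity (y axis) per sample for the subunits detected on at least 3 arrays, with filled points where the detection p-value was under 0.01 and bars for the group mean ± SD (n = 4 each). Ndufc1 and Ndufa13 show PDGF-BB sample 3 apart from the other PDGF-BB samples, and Ndufv1 has 3 of 4 TGF-β2 samples above all others.

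Of the 5 assembly factors 1 was detected on at least 1 array (20.0%), against 17.3% of all named genes. Ndufaf1, which takes part in building the membrane arm, was detected on 2 arrays, TGF-β2 sample 3 and PDGF-BB sample 3. Ndufaf3 and Ndufaf4, which act on the module that binds ubiquinone, Ndufaf5, which hydroxylates Ndufs7, and Ndufaf7, a methyltransferase, were on 0 arrays. In PDGF-BB sample 4, Ndufaf3 and Ndufaf4 had log2 values of 5.28 and 5.32, with detection p-values of 0.0125 and 0.0113 just short of the threshold, and 2 assembly factors were among the 500 brightest probes. Ndufaf3 had 4.51 to 4.57 in the other PDGF-BB samples. Of 11 assembly genes with other symbols, 1 (Foxred1) was detected (9.09%), on 1 array. Ndufa4 was detected in TGF-β2 sample 3 (4.98) and PDGF-BB sample 3 (5.46), and Ndufs5-ps in PDGF-BB sample 3 (5.05). A pseudogene can share sequence with its parent gene, here Ndufs5, so that the source of this signal is uncertain.

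Detection set the limit of what could be compared. The lowest log2 value of a detected probe lay between 4.98 and 5.72 on the different arrays, and undetected member values between 4.41 and 5.58, so that a transcript below these levels could not be told from background. In all 9 member probes of 8 genes (Ndufb6, Ndufc1 with 2 probes, Ndufa3, Ndufv3, Ndufv1, Ndufa13, Ndufs6 and Ndufa6) were detected on at least 3 of the 12 arrays, which 4.28% of all probes passed, and were tested with limma among 1099 probes. A filter of this kind can be passed through 1 group alone, so that these 9 do not stand for all members.

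The TGF-β2 samples were first compared with controls. No member passed an adjusted p of 0.05 in limma, where 0% of the 1099 probes did, and 1 member, Ndufv1, had an unadjusted p under 0.05, as had 0.728% of all probes. Ndufv1 averaged 5.43 ± 0.35 with TGF-β2 and 4.93 ± 0.20 in controls (SD, n = 4 each), a log2 difference of 0.50 ± 0.21 (SE, adjusted p = 1, unadjusted p = 0.039). It was 0.62 within chip 1 and 0.38 within chip 2. Ndufv3 averaged 5.75 ± 1.02 with TGF-β2 and 5.16 ± 0.52 in controls, a log2 difference of 0.59 ± 0.45 (SE, adjusted p = 1), which was 0.14 without TGF-β2 sample 4 and −0.02 with arrays scaled to a common median.

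Differences of the other tested members between TGF-β2 and control were smaller than their errors. They ranged between −0.03 ± 0.47 for Ndufs6 and 0.36 ± 0.50 for Ndufa13, and those of the Ndufc1 probes were 0.25 ± 0.59 and −0.01 ± 0.20 (all adjusted p = 1). Several went in opposite directions on the chips. Ndufc1 differed by −0.79 on chip 1 and 1.28 on chip 2, Ndufs6 by −0.79 and 0.74, and Ndufa13 by −0.14 and 0.87. In all 7 of 9 members had a difference above 0, against 58.1% of all probes, and the median difference was 0.21 for members and 0.05 for all tested probes. No member had groups without overlap, which 0.364% of probes had in the higher and 0.273% in the lower direction.

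PDGF-BB samples were compared with controls in the same way. No member passed an adjusted p of 0.05 in limma, where 0% of all probes did, or an unadjusted p under 0.05, where 4.37% did. The largest moderated t values belonged to Ndufb6, which averaged 5.63 ± 0.62 with PDGF-BB and 5.30 ± 0.28 in controls, a log2 difference of 0.33 ± 0.31 (SE, n = 4 each, adjusted p = 0.925), and to Ndufa6, with 5.07 ± 0.45 and 4.86 ± 0.09 and a difference of 0.21 ± 0.23 (adjusted p = 0.936). For Ndufb6 the difference was −0.24 within chip 1, 0.90 within chip 2, 0.09 without PDGF-BB sample 2 and 0.06 with common median scaling. For Ndufa6 it was 0.01 without PDGF-BB sample 3. The lowest were Ndufs6 at −0.13 ± 0.47 and Ndufa3 at 0.01 ± 0.32 (adjusted p = 0.999 each), and Ndufa3 turned to −0.30 in the cubic-spline table and −0.19 with array weights.

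Several PDGF-BB means moved with PDGF-BB sample 3, those of Ndufc1, Ndufs6 and Ndufa13 the most. For Ndufc1 the group averaged 5.43 ± 1.26 with PDGF-BB and 5.36 ± 0.45 in controls, a log2 difference of 0.07 ± 0.59, which was −0.89 within chip 1 and 1.02 within chip 2, where PDGF-BB sample 3 lay. Without that sample it was −0.54 ± 0.41 (adjusted p = 0.590), and that of Ndufs6 was −0.52 ± 0.39 (adjusted p = 0.591). Of the 9 members, 8 had a difference above 0, against 41.4% of all probes, but 3 had one without PDGF-BB sample 3, 6 with common median scaling, and 4 each in the cubic-spline table and with array weights. The median difference was 0.06 for members and −0.06 for all tested probes. Groups without overlap were found for no member, against 0.455% of probes higher and 1.27% lower.

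TGF-β2 and PDGF-BB samples were also compared with each other, a comparison that shares its samples with the other 2. No member passed an adjusted p of 0.05 in limma (0% of all probes) or an unadjusted p under 0.05 (4.73% of all probes). Ndufv1 averaged 5.43 ± 0.35 with TGF-β2 and 4.99 ± 0.21 with PDGF-BB, a log2 difference of 0.44 ± 0.21 (SE, n = 4 each, adjusted p = 0.830), which was 0.64 within chip 1 and 0.23 within chip 2. Ndufv3 had a difference of 0.56 ± 0.45 (adjusted p = 0.830), but −0.19 within chip 2, 0.12 without TGF-β2 sample 4, 0.17 with common median scaling and 0.07 with array weights. For Ndufb6 it was −0.12 ± 0.31 (adjusted p = 0.916), with 0.71 within chip 1 and −0.95 within chip 2. Without PDGF-BB sample 3 the difference of Ndufv1 was 0.48 ± 0.22 (adjusted p = 0.435) and that of Ndufc1 was 0.76 ± 0.41 (adjusted p = 0.466), against 0.18 ± 0.59 with it. In 6 of 9 members the difference was above 0 (8 without PDGF-BB sample 3 and 5 to 8 under the other scalings), against 66.2% of all probes, with medians of 0.10 for members and 0.14 for all probes, and no member had groups without overlap (1.55% of probes higher and 0.364% lower).

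**Figure D4:**
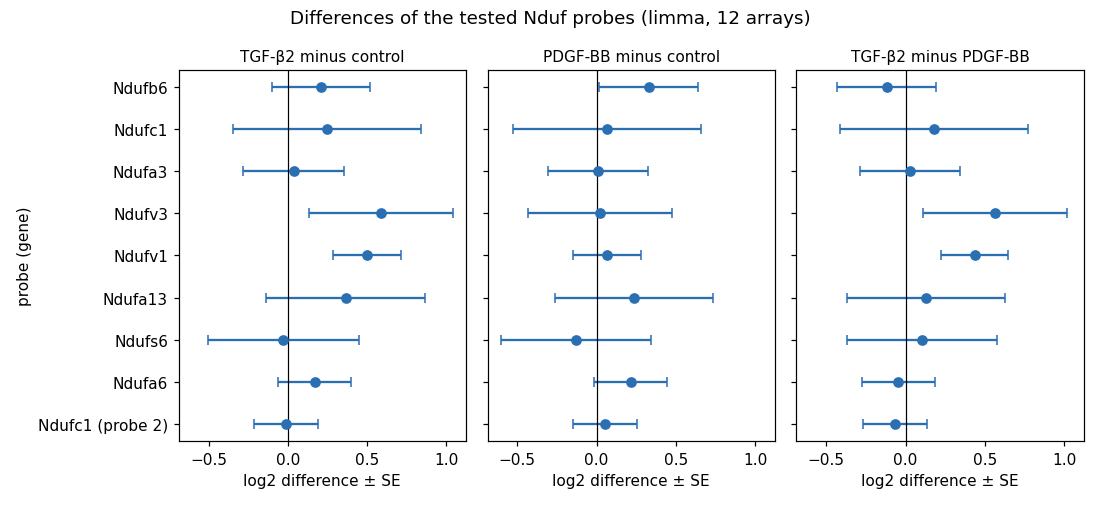
Log2 differences with their standard errors from limma for the 9 tested member probes in the 3 comparisons (1 panel each), with points for the difference, bars for its SE over 12 arrays and a line at 0. The bars of Ndufv1 (0.50 ± 0.21) and Ndufv3 (0.59 ± 0.45) lie above 0 for TGF-β2 against control, and no member passed the adjusted threshold in any panel.

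Genes of complexes II to V were tested alongside. Of the 44 genes, 22 with 24 probes were tested, and 0 rose and 0 fell at an adjusted p of 0.05 in any of the 3 comparisons. Differences above 0 were found for 17 of the 24 probes with TGF-β2 against control, 14 with PDGF-BB against control and 17 with TGF-β2 against PDGF-BB. Of all 1099 tested probes 58.1%, 41.4% and 66.2% had a difference above 0 in these comparisons. In the same order the median log2 differences were 0.21, 0.06 and 0.10 for the complex I members and 0.19, 0.05 and 0.13 for these probes. None of the assembly genes was detected often enough to be tested.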

How the data were processed

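RNA of exosomes from HL-1 cells was measured on 12 Illumina arrays, 4 per group, with groups taken from the sample titles. The deposited intensity values were background-subtracted probe means by the authors (GenomeStudio per the labels, Beadstudio per the methods) without normalization between arrays. The deposited detection p-value, bead standard error and count of beads (median 40 per member value, 17 to 67) stood beside each intensity. A table normalized by the authors with cubic splines was used as an alternative. The authors left out a PDGF-BB sample as an outlier, for poor hybridization and labelling. The labels do not identify it, so that all samples were kept and each was left out in turn. The paper does not say which PDGF-BB sample it was. PDGF-BB sample 3 had the most detected probes of its group (1070), and PDGF-BB samples 1, 2 and 4 had 421, 322 and 294.

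Here intensities were background-corrected with normexp from the detection p-values, quantile normalized with an offset of 16 and put on the log2 scale (neqc). Probes detected (p-value under 0.01) on at least 3 arrays were fitted with lmFit and eBayes (limma 3.58.1, R 4.3.3) on group means over all arrays, two-sided, with Benjamini-Hochberg adjustment over 1099 probes. A moderated t is the log2 difference over its shrunken standard error. Arrays have no counting error, and their number limits precision: the median SE of a log2 difference was 0.34. Of all probes 23977 had 1 gene symbol and 1719 had none. Genes were named if they were among the 10 subunits detected on the most arrays, had an extreme moderated t, had probes that differed by 4 or more arrays, or were core subunits or assembly factors, and the remaining subunits were listed by detection. Members, roles and gene lists were chosen with earlier results of these data known. Alternatives were the cubic-spline table, common median scaling, an offset of 50, other filters, array weights, chip or replicate blocks and fits within a chip. Promoters came from RefSeq, and motifs were searched with Python 3.11.15.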

Additional observations from a re-analysis of the deposited data

Results flagged for a closer look

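Within groups of 4 samples, 48 sets of values were examined with Dixon's test at 95%. It marks a sample whose gap to its nearest neighbour was large for the range of the group. Chance gives this in about 1 of 20 groups of normally distributed values. There were 7 such values. That rate cannot be applied here, because genes were named partly by detection in these data. The other intensities in the flagged groups were also undetected, so that no conclusion is drawn from the count. PDGF-BB sample 3 gave 5 of them: Ndufc1 at a log2 intensity of 7.32 against 4.75 to 4.88 in the other PDGF-BB samples, Ndufa13 at 6.89 against 4.66 to 4.79, Ndufs6 at 6.29 against 4.61 to 4.73, Ndufb8 at 6.18 against 4.52 to 4.63, and the share of subunit genes detected at 42.4% against 0 to 3.03%. The others were Ndufaf3 in PDGF-BB sample 4, at 5.28 against 4.51 to 4.57 in the other PDGF-BB samples, and Ndufs6 in control sample 2, at 6.31 against 4.80 to 4.87 in the other controls. The Ndufaf3 value was not detected and rested on a deposited signal of 73 ± 34 (SE over beads). The values of PDGF-BB sample 3 are not independent of each other, and what sets PDGF-BB sample 3 apart was not tested.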

How the results depend on the processing

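The count of probes at an adjusted p under 0.05 was 0 in each comparison in limma, and no member was called under any alternative. For PDGF-BB against control it was 24 within chip 1 and 0 to 2 when an array was left out (2 without control sample 1). For TGF-β2 against PDGF-BB it was 3 within chip 1 and 0 to 1 when an array was left out (1 without control sample 1). Mean shares of subunits detected ranged over 15.2 to 21.2% with TGF-β2, 1.01 to 15.2% with PDGF-BB and 7.07 to 12.1% in controls when an array was left out, and at a detection p under 0.05 they were 26.5%, 18.2% and 16.7% (TGF-β2, PDGF-BB, control), against 10.6%, 9.12% and 10.7% of all named genes. The cause was not tested.

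Ndufv1 stayed above control with TGF-β2 in each alternative run: 0.94 in the cubic-spline table, 0.26 with common median scaling, 0.26 with an offset of 50, 0.33 with array weights, and 0.39 to 0.55 when an array was left out. Under alternatives only the members with the highest or lowest moderated t of each comparison were counted. Of their values 226 kept their direction and side of the threshold and 29 reversed. Members outside this count reversed too. For PDGF-BB against control, Ndufa13 turned from 0.23 to −0.33 in the cubic-spline table and −0.08 with array weights. The first Ndufc1 probe turned from 0.07 to −0.36 and −0.32. For PDGF-BB against control, Ndufb6 reversed to −0.24 within chip 1, Ndufs6 to 0.68 within chip 2 (−0.52 to 0.23 leaving out an array), and Ndufa3 to −0.30 in the cubic-spline table, −0.19 with array weights and −0.71 within chip 1 (−0.32 to 0.19). For TGF-β2 against PDGF-BB, Ndufb6 reversed to 0.71 within chip 1 (−0.32 to 0.13), Ndufv3 to −0.19 within chip 2 and the second Ndufc1 probe to 0.08 with array weights (−0.15 to 0.09). For TGF-β2 against control, Ndufv3 reversed to −0.02 with common median scaling, Ndufs6 to 0.13 with array weights and 0.74 within chip 2 (−0.31 to 0.33), and the second Ndufc1 probe to 0.09 with common median scaling, 0.09 with array weights and 0.11 within chip 2 (−0.10 to 0.06). The cubic-spline table also moved the median of all tested probes, to 0.34 for TGF-β2 against PDGF-BB (0.14 after quantile normalization) and to −0.18 for PDGF-BB against control (−0.06).

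With the replicate number as a block, 0 probes passed in each of the 3 comparisons. For PDGF-BB against control 83 probes had an unadjusted p under 0.05 in limma with this block, against 48 without it. For TGF-β2 against control the count was 8 both with and without the block. Deviations of same-numbered samples correlated at −0.225 to 0.429. In 13 of 24 cases a sample correlated best with its own number among the 4 samples of another group. Samples numbered 1 and 3 correlated at 0.232 to 0.429 across groups, but not every same-numbered pair was above 0.1 and the labels name no shared batch, so that no pairing was used. Low signal over background limits all of these values.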
